A study of Mus musculus with 12 samples.

Results

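Described here are 7 of the 18193 genes measured on mouse Affymetrix arrays of sorted CD8 T cells, all with very large losses of signal along the way from naive to tumour-infiltrating cells. They were chosen by their log2 differences on these same arrays, as genes whose level fell by more than 4 log2 units in 1 step. Aff3, Lrig1, Nsg2 and Dapl1 were picked for a fall between PD-1+ Tim-3- and PD-1+ Tim-3+ tumour-infiltrating lymphocytes (TIL). Tmem108, Cnr2 and Lypd6b were picked for a fall between naive cells and Tim-3- TIL. The size of the step that picked a gene is therefore a description and carries no test, and tests are given only for the other step.

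The 12 arrays fall into 3 groups from mice whose strain is labelled C57bl/c, aged 6 to 8 weeks. Naive CD8 T cells came from the spleen of naive mice (n = 5). The PD-1+ Tim-3- 2B4- TIL (n = 3), which the labels call stem-like, and the PD-1+ Tim-3+ 2B4+ TIL (n = 4), which they call exhausted, were sorted on day 17 to 19 from flank tumours of B16F10-GP, a skin melanoma line. Tumours were digested with enzymes and TIL taken from a density gradient, so tissue, tumour and cell handling cannot be told apart in comparisons with naive cells. The labels do not say whether arrays of 1 group came from separate mice, so p-values measure the spread between these arrays, which may in part be technical. Levels are log2 intensities of the probe set with the highest mean for each gene, given as mean ± SD. A level below 5.71, percentile 40 of all genes, is called dim here. The table comes without detection calls, so a dim level may be background and a fall into it at best a lower bound.

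The 7 proteins have little in common by textbook role. Aff3 is a nuclear protein of the AFF family, whose better known members are scaffolds of the complex that releases paused RNA polymerase II. Lrig1 is a membrane protein with leucine-rich repeats and immunoglobulin domains that restrains growth factor receptors and marks quiescent stem cells in epithelia. Nsg2 is an endosomal membrane protein best known from neurons, and Dapl1 is a small protein related to the death-associated protein Dap. Tmem108, also called retrolinkin, is a transmembrane protein studied in neuronal trafficking. Cnr2 encodes the cannabinoid receptor CB2, a G protein-coupled receptor of immune cells. Lypd6b belongs to the Ly6 family of small cysteine-rich surface proteins, some of which modulate nicotinic acetylcholine receptors.

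RefSeq promoters (assembly GRCm38.p6, 250 bases before to 50 after a start site) were found for 6 of the 7 genes, all but Lypd6b. Those of Aff3 and Dapl1, lost in the same step, are shown because they differ widely in base composition (83.3% and 51% G and C). The first promoter of Cnr2, lost in the other step, is shown as well and is close to that of Dapl1, at 50%. Each is written 5′ to 3′ on the strand of the gene, and capitals mark matches on either strand to 3 motifs. The first is the TATA box, TATAAA. The second is the core bound by TCF and LEF factors, CTTTGA. The third is the box bound by KLF factors, CCNCNCCC.
Aff3 chr1:38627195-38627494 (- strand): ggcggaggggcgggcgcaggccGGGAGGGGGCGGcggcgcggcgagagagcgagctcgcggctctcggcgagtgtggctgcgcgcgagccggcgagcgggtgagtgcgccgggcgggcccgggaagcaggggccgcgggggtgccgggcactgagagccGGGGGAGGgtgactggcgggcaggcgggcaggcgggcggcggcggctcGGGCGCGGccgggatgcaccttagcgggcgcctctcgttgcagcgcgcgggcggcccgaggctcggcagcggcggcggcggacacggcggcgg
Dapl1 chr2:59484403-59484702 (+ strand): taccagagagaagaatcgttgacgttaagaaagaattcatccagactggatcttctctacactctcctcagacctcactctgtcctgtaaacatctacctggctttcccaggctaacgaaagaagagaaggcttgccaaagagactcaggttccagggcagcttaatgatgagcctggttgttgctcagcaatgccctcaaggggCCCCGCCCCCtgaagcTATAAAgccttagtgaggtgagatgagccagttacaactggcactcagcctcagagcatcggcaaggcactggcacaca
Cnr2 chr4:135894939-135895238 (+ strand): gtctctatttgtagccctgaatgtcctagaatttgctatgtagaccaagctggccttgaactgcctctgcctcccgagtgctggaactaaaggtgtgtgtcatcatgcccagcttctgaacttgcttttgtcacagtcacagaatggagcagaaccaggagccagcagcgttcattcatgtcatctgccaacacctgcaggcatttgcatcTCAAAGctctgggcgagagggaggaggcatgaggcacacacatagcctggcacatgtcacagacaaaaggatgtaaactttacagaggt
The Aff3 promoter is 83.3% G and C and holds 54 CG pairs, more than 99.7% of the 32851 promoters in the table. The Lrig1 promoter and the upstream promoter of Tmem108 are also rich in CG pairs (35 and 39), whereas Dapl1 has 5 and this Cnr2 promoter 3, against a median of 7. TATAAA occurs in 13.6% of all promoters and stood in 1 of the 9 member promoters, that of Dapl1, starting 29 bases before the start site. CTTTGA occurs in 16% of all promoters and stood in both Cnr2 promoters and in none of the other 7 member promoters. The motifs of ETS (CCGGAAG) and AP-1 (TGANTCA) factors, in 8.86% and 7.81% of all promoters, stood in none of the 9. CCNCNCCC occurs in 49.5% of all promoters and stood in those of Aff3, Lrig1 and Dapl1, in 1 of 2 of Nsg2 and in 1 of 2 of Cnr2. Runs of G or C can match it at overlapping positions, as in the Aff3 and Dapl1 sequences. Matches are letters in a window and show no binding.

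Aff3 was bright in naive cells and Tim-3- TIL and dim in Tim-3+ TIL. The step between the TIL groups that picked it was -6.21 ± 0.24 on its brightest probe set, -3.04 on its other probe set and -4.63 for their mean. Its level was 10.88, 10.83, 10.64, 11.01 and 10.84 in the 5 naive arrays, 10.75, 10.12 and 10.11 in the 3 Tim-3- arrays, and 4.86, 3.69, 4.14 and 3.78 in the 4 Tim-3+ arrays. Naive and Tim-3- arrays overlapped, and every Tim-3+ array was far below them and dim. The mean went from 10.84 ± 0.13 in naive to 10.33 ± 0.37 in Tim-3- and 4.12 ± 0.53 in Tim-3+ TIL. On the linear scale Tim-3- TIL kept 70.1% of the naive intensity and Tim-3+ TIL 0.948%. In bulk samples, fewer cells with a transcript and less of it per cell cannot be told apart. The step from naive to Tim-3- TIL, which did not pick the gene, was -0.51 ± 0.23 (SE), with a 95% interval from -1.01 to -0.019. It did not pass (limma adjusted p = 0.104). That call turned in 7 of 25 alternatives, where adjusted p lay between 0.00111 and 0.0373. Among them was the fit without Tim-3- replicate 1 (-0.72, adjusted p = 0.0349), the Tim-3- array at naive level, and the fit without Tim-3+ replicate 1 (-0.51, adjusted p = 0.0238).

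Lrig1 was the only one of the 7 that was higher in Tim-3- TIL than in naive cells. Naive arrays lay at 8.66, 9.04, 8.80, 8.60 and 8.73, Tim-3- arrays at 10.71, 11.03 and 11.37, and Tim-3+ arrays at 5.22, 5.53, 6.42 and 6.53. The 3 groups did not overlap, with Tim-3- TIL on top, naive cells between and Tim-3+ TIL below both. Group means were 8.77 ± 0.17, 11.04 ± 0.33 and 5.93 ± 0.65. The rise from naive to Tim-3- TIL was 2.27 ± 0.26, or 4.82-fold (limma adjusted p = 1.12e-05), and passed in all 25 alternatives, with values from 1.36 to 2.49. The fall between the TIL groups that picked the gene was -5.11 ± 0.28, and Tim-3+ TIL held 14.0% of the naive intensity. The Tim-3+ arrays parted by pairs, 5.22 and 5.53 in replicates 1 and 2 against 6.42 and 6.53 in replicates 3 and 4, and the first pair was dim.

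Nsg2 fell in both steps. Its naive arrays read 11.63, 11.72, 12.04, 11.98 and 12.08, its Tim-3- arrays 10.51, 10.73 and 10.75, and its Tim-3+ arrays 5.21, 5.35, 6.06 and 5.83. No array of a group reached into another group, and the Tim-3- arrays stood much nearer to naive than to Tim-3+ arrays. Means were 11.89 ± 0.20, 10.66 ± 0.13 and 5.61 ± 0.40. The naive to Tim-3- step was -1.23 ± 0.18 (limma adjusted p = 0.000103), which left 42.7% of the naive intensity, and it passed in all 25 alternatives. The step that picked the gene was -5.05 ± 0.19 and left 1.29% of the naive intensity in Tim-3+ TIL.

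Dapl1 also stood lower in Tim-3- TIL than in naive cells, but less firmly. It was at 12.53, 12.63, 12.36, 12.26 and 12.27 in naive arrays, at 12.07, 11.28 and 11.59 in Tim-3- arrays, and at 6.81, 6.46, 6.46 and 7.63 in Tim-3+ arrays. All Tim-3- arrays were below all naive arrays, replicate 1 by the smallest margin, and Tim-3+ replicate 4 was the highest of its group. Means were 12.41 ± 0.16, 11.65 ± 0.40 and 6.84 ± 0.55, the last above the dim level on all 4 arrays. The fall from naive to Tim-3- TIL was -0.76 ± 0.24 (limma adjusted p = 0.0248). It was lost in 6 of 25 alternatives, namely without naive replicate 2 (-0.71, adjusted p = 0.0533), without Tim-3- replicate 2 (-0.58, adjusted p = 0.132) or 3 (-0.73, adjusted p = 0.0783), with replicate numbers as a block (-0.70, adjusted p = 0.0513) and within each array set described below (-0.50 and -0.86, adjusted p = 0.105 and 0.0505). The step between TIL groups was -4.81 ± 0.25, and Tim-3+ TIL held 2.11% of the naive intensity.

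Of these 4 genes, 1 was higher and 2 were lower in Tim-3- TIL than in naive cells, and 1 did not pass. Over all genes 16.1% were higher and 18.3% lower by the same limma threshold (adjusted p below 0.05), but a share of 4 genes is coarse. Arrays of the naive and Tim-3- groups did not overlap for 3 of the 4, against 35.1% of all genes. The step shares the Tim-3- arrays with the step that picked the genes. In Tim-3- TIL against naive cells, Lrig1 thus passed as higher and Nsg2 as lower under all 25 alternatives. Dapl1 passed as lower under 19 of them. Aff3 did not pass in the main fit and passed as lower under 7 alternatives.

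**Figure D1:**
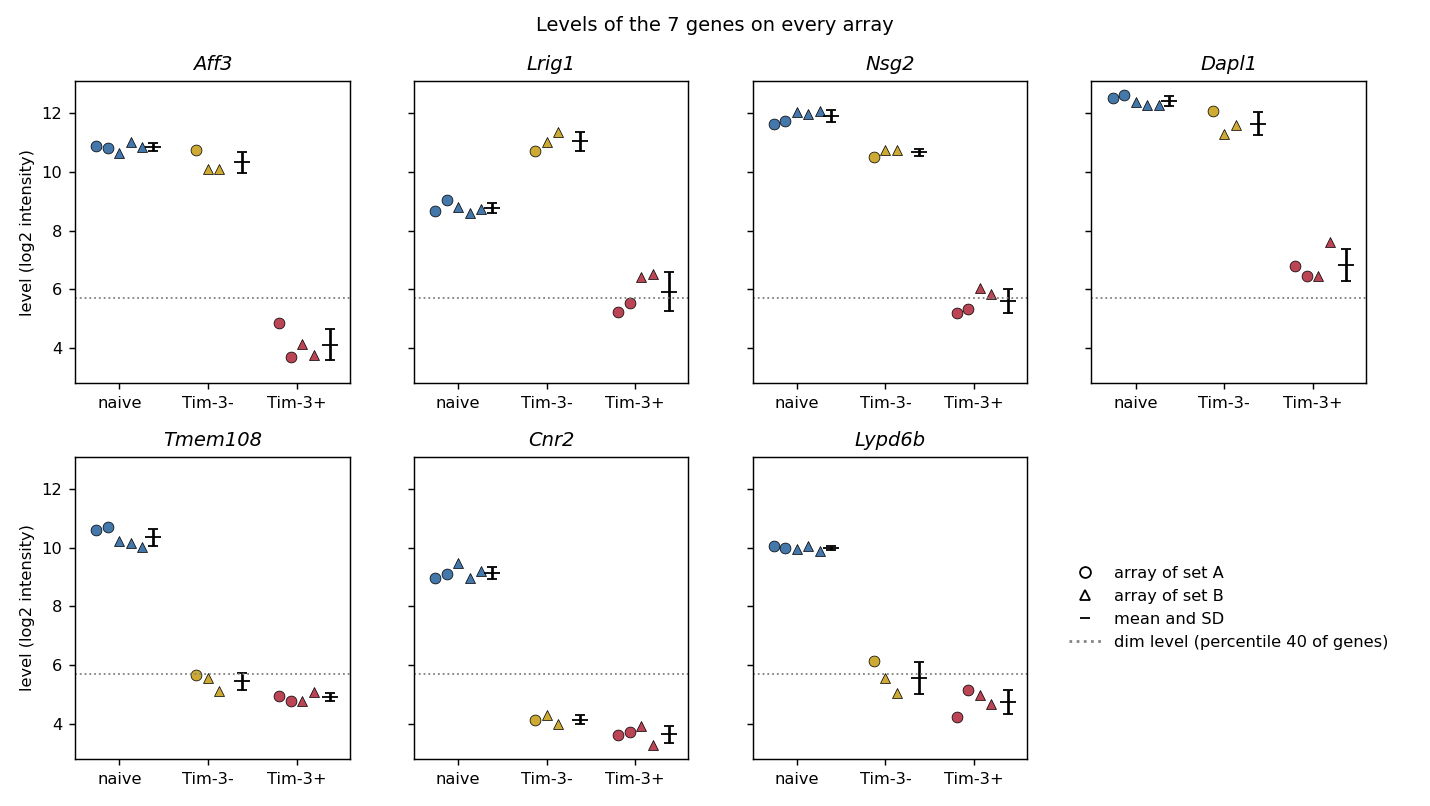
Level (log2 intensity) of each of the 7 genes on every array, by group, with the group mean and SD at the right of each group; circles are arrays of set A, triangles arrays of set B, and the dotted line is the dim level of 5.71. In the top row Tim-3- TIL lie far above Tim-3+ TIL, with Lrig1 above naive cells (11.04 against 8.77) and Nsg2 below them (10.66 against 11.89); in the bottom row both TIL groups lie near or below the dotted line.

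Tmem108 dropped to a dim level already in Tim-3- TIL. Naive arrays stood at 10.60, 10.69, 10.24, 10.17 and 10.03, Tim-3- arrays at 5.65, 5.57 and 5.12, and Tim-3+ arrays at 4.96, 4.79, 4.79 and 5.08. All 7 TIL arrays were dim, and the lowest Tim-3- array was just above the highest Tim-3+ array. The fall that picked the gene was -4.90 ± 0.17, from 10.35 ± 0.28 to 5.45 ± 0.29, which left 3.35% of the naive intensity. Tim-3+ TIL, at 4.91 ± 0.14, differed from Tim-3- TIL by -0.54 ± 0.17 (95% interval -0.91 to -0.17), which did not pass (limma adjusted p = 0.0557). It passed in 7 of 25 alternatives, among them the fits without naive replicate 2 (adjusted p = 0.0415), naive replicate 5 (adjusted p = 0.0478) or Tim-3- replicate 3 (-0.70, adjusted p = 0.0240), with replicate numbers as a block (adjusted p = 0.0377) and with the array sets as a block (adjusted p = 0.0150).

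Cnr2 likewise went to a dim level in Tim-3- TIL. Its levels were 8.97, 9.10, 9.47, 8.96 and 9.22 in naive arrays, 4.14, 4.31 and 4.00 in Tim-3- arrays and 3.63, 3.72, 3.94 and 3.28 in Tim-3+ arrays. Every TIL array was well below the dim level, and Tim-3+ arrays lay just under Tim-3- arrays without overlap. The step that picked it was -5.00 ± 0.15, from 9.14 ± 0.21 to 4.15 ± 0.15, leaving 3.13% of the naive intensity. Between the TIL groups it differed by -0.51 ± 0.16 (95% interval -0.85 to -0.16; limma adjusted p = 0.0544), short of the threshold. It passed in 5 of 25 alternatives, 2 of them without 1 array: naive replicate 3 (adjusted p = 0.0392) or Tim-3+ replicate 3 (-0.61, adjusted p = 0.0261).

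Lypd6b had the tightest naive arrays and the widest TIL arrays of these 3. It was at 10.06, 9.996, 9.95, 10.06 and 9.90 in naive cells, at 6.13, 5.55 and 5.04 in Tim-3- TIL and at 4.23, 5.16, 4.98 and 4.67 in Tim-3+ TIL. The TIL groups overlapped, since Tim-3- replicate 3 was below Tim-3+ replicate 2, and Tim-3- replicate 1 was the only TIL array above the dim level. The step that picked it was -4.42 ± 0.22, from 9.99 ± 0.070 to 5.57 ± 0.54, leaving 4.67% of the naive intensity. The further step to 4.76 ± 0.41 in Tim-3+ TIL was -0.81 ± 0.23 and passed (limma adjusted p = 0.0318). That call did not hold in 9 of 25 alternatives (adjusted p between 0.0661 and 0.147), such as the fits without Tim-3- replicate 1 (-0.54, adjusted p = 0.133) or 2 (-0.83, adjusted p = 0.0860) and those without Tim-3+ replicate 1 (-0.64, adjusted p = 0.0846) or 4 (-0.78, adjusted p = 0.0703), and the fit with replicate numbers as a block (-0.81, adjusted p = 0.0734).

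Of the 3 genes lost in both TIL groups, 1 was lower in Tim-3+ than in Tim-3- TIL by limma, against 5.77% of all genes lower and 7.77% in the other direction. Arrays did not overlap and lay lower for 2 of the 3, against 9.57% of all genes. Both values compare dim levels. This step shares the Tim-3- arrays with the step that picked the genes. The 3 naive to Tim-3+ differences were -5.44 for Tmem108, -5.50 for Cnr2 and -5.23 for Lypd6b, and Tim-3+ TIL held 2.30%, 2.21% and 2.66% of the naive intensity.

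The genes picked were part of a short list of equal falls. Between the TIL groups 9 genes, 0.0495% of all, fell by more than 4 log2 units, of which 4 are described here. The others were S1pr1, Klf3, Synpo, Ccr6 and Adh4. Just inside the limit stood Adh4 (-4.20) and Ccr6 (-4.55), and just outside Tdrp (-3.95) and Slamf6 (-3.94). Between naive cells and Tim-3- TIL 13 genes, 0.0715%, fell as far, of which 3 are described here. Just inside stood Gm11346 (-4.04) and H2-Ob (-4.05), and just outside Cacna2d4 (-3.94) and Sh3pxd2a (-3.86). Lrig1 was not alone in rising first: of the 9 genes, 4 were higher in Tim-3- TIL than in naive cells (limma adjusted p below 0.05), the others being Synpo (5.32 ± 0.23), Ccr6 (4.36 ± 0.19) and Adh4 (4.16 ± 0.18). A further 4 were lower, and Aff3 did not pass. Over all genes 16.1% were higher and 18.3% lower in this step, which shares the Tim-3- arrays with the step that gave the 9 genes. Of the 13 genes, 5 were lower again in Tim-3+ than in Tim-3- TIL, among them Lypd6b and Dtx1 (-1.82 ± 0.22), and 8 did not pass. In that step 5.77% of all genes were lower and 7.77% higher, and it too shares the Tim-3- arrays with the step that gave the 13 genes. These genes outside the 7 were named after their values were seen, except those at the limit.

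**Figure D2:**
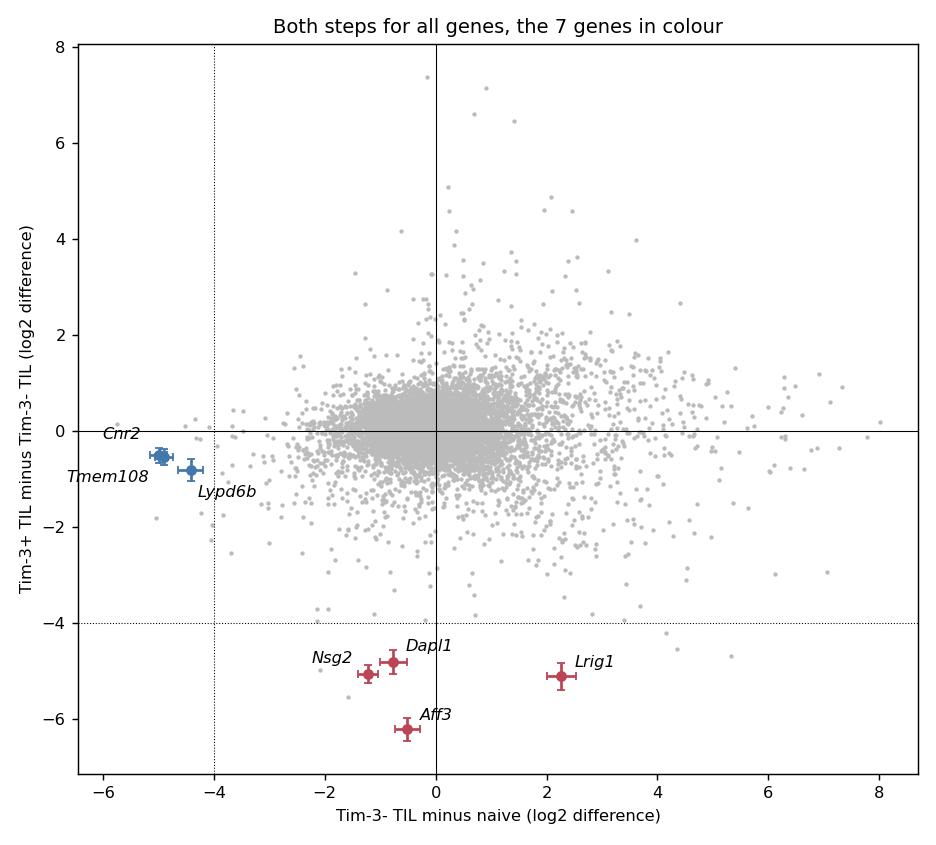
Log2 difference of Tim-3- TIL from naive cells (horizontal) against that of Tim-3+ from Tim-3- TIL (vertical) for all 18193 genes in grey; red marks Aff3, Lrig1, Nsg2 and Dapl1 and blue Tmem108, Cnr2 and Lypd6b, with SE bars from the limma fit, and dotted lines mark falls of 4. Both axes use the Tim-3- arrays. Lrig1 is the only coloured gene right of 0, at 2.27.

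Other probe sets annotated to the same genes were read on the same arrays and are given as a description; whether each reads the same transcript was not tested. The 7 genes have 13 probe sets in all. The second Aff3 probe set had group means of 9.22, 8.47 and 5.43 for naive, Tim-3- and Tim-3+ cells, the same order. Its step between the TIL groups was smaller, at -3.04 against -6.21, and its naive to Tim-3- step larger, at -0.75 against -0.51. Its lowest naive array, at 8.83, lay above its highest Tim-3- array, at 8.70, unlike the brighter probe set. The second Nsg2 probe set had means of 9.12, 6.81 and 3.26, so that its naive to Tim-3- step, -2.30, was larger than the -1.23 of the brighter probe set. The second Lrig1 probe set also had Tim-3- TIL on top, with 8.68, 10.94 and 5.19. The third did not, with 7.18, 6.73 and 6.22. The other Tmem108 probe sets were dim on all arrays, with naive means of 2.83 and 5.03 and log2 differences of -0.91 and -1.20 in Tim-3- TIL. Dapl1, Cnr2 and Lypd6b have 1 probe set each.

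**Figure D3:**
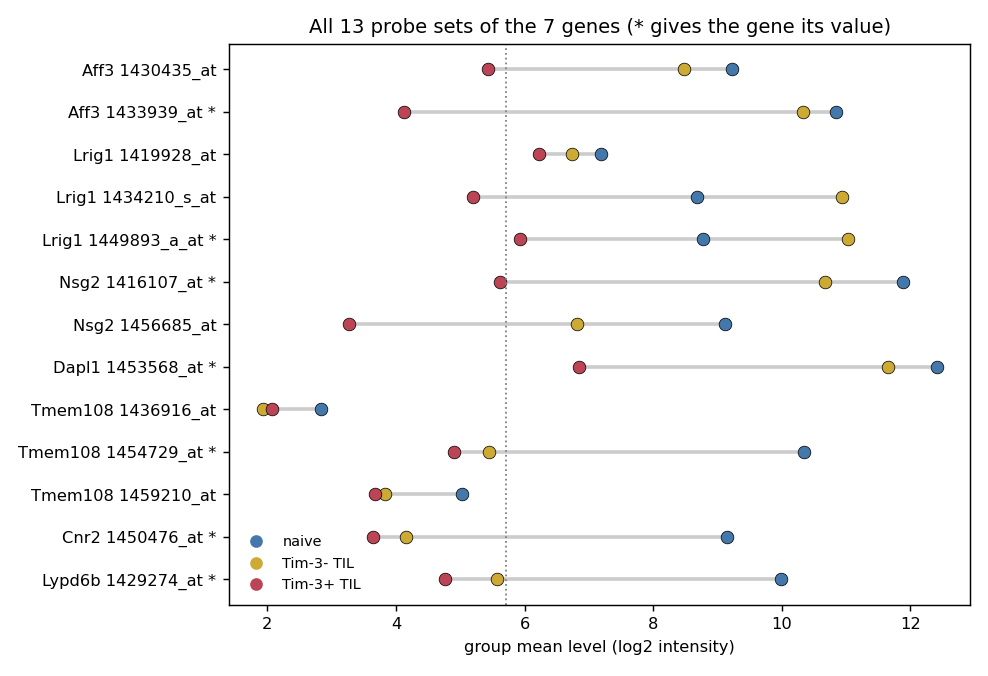
Group mean level (log2 intensity) of all 13 probe sets of the 7 genes, for naive cells, Tim-3- TIL and Tim-3+ TIL, with the dotted line at the dim level of 5.71; an asterisk marks the probe set that gives the gene its value. Levels of different probe sets are not comparable with each other, only groups within a row. The dimmest Lrig1 probe set in naive cells, at 7.18, has naive cells on top, unlike the other Lrig1 probe sets.

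Within each group the arrays also parted into 2 sets that no label names. Set A has the first 2 naive arrays, the first Tim-3- array and the first 2 Tim-3+ arrays, and set B the remaining 7. Log2 differences between arrays of the same group had an SD of 0.234 to 0.301 inside a set and 0.337 to 0.412 from set to set. Because these values were used to draw the sets, some of the gap follows from the choice. Aff3 in Tim-3- TIL against naive cells was at -0.10 within set A and -0.71 within set B (limma adjusted p = 0.889 and 0.00579). Lrig1 in the same step was at 1.85 and 2.49, and Nsg2 at -1.16 and -1.29, called in both sets. In Tim-3+ against Tim-3- TIL, Tmem108 was at -0.78 and -0.41 (adjusted p = 0.0344 and 0.187), Cnr2 at -0.46 and -0.55 (adjusted p = 0.115 and 0.205) and Lypd6b at -1.43 and -0.47 (adjusted p = 0.0703 and 0.147). The steps that picked the genes were also read within each set. They are given as a description only, since the genes were picked on these same arrays. Between the TIL groups Aff3 was at -6.47 and -6.16, Lrig1 at -5.33 and -4.72, Nsg2 at -5.24 and -4.79 and Dapl1 at -5.44 and -4.39. From naive to Tim-3- TIL Tmem108 was at -4.99 and -4.81, Cnr2 at -4.89 and -5.06 and Lypd6b at -3.90 and -4.67. For the lone Tim-3- array of set A the fit borrows the spread of the remaining arrays.

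Over the 12 arrays the levels of Tmem108, Cnr2 and Lypd6b correlated with Pearson's r between 0.990 and 0.992, and those of Aff3, Nsg2 and Dapl1 between 0.982 and 0.986. Lrig1 correlated with those 3 at 0.791 to 0.827 and with Tmem108, Cnr2 and Lypd6b at 0.230 to 0.279. These values describe patterns over 3 groups and largely repeat how the genes were picked. The genes most like Lrig1 by this measure, outside the 7, were Amz2 (r = 0.984), Pou6f1 (r = 0.972) and Gramd3 (r = 0.971). Amz2 stood at 8.18 in naive cells, 9.20 in Tim-3- and 7.24 in Tim-3+ TIL, the same shape on a smaller scale. Aff3 was most like Irf2bp2 (r = 0.994), Btla (r = 0.983) and St6gal1 (r = 0.982), Nsg2 like St6gal1 (r = 0.997), Bach2 (r = 0.992) and Klf3 (r = 0.992), and Dapl1 like Bach2 (r = 0.988), Irf2bp2 (r = 0.988) and Btla (r = 0.987). Bach2 encodes a transcriptional repressor and Btla an inhibitory receptor, and St6gal1 encodes a sialyltransferase. Irf2bp2, although nearest to Aff3 in shape, moved little, from 12.20 and 12.05 to 11.06. Tmem108 was most like Etnk1 (r = 0.995), Igfbp4 (r = 0.995) and Cnp (r = 0.994), and Cnr2 like Ifngr2 (r = 0.996), Slc16a5 (r = 0.995) and Igfbp4 (r = 0.995). Lypd6b was most like Tmie (r = 0.996), Rassf2 (r = 0.996) and Acvr1b (r = 0.994). Igfbp4, which encodes a binding protein of insulin-like growth factors, went from 9.93 to 5.61 and 5.46, and Ifngr2, a chain of the interferon gamma receptor, from 9.70 to 6.01 and 5.30.

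Genes known to mark naive and stem-like T cells went the same way as Aff3, Nsg2 and Dapl1. Of 15 listed, 13 were measured. Between the TIL groups 12 were lower and 0 higher by limma, with a median log2 difference of -2.06 against 0.011 over all genes. Against naive cells, Tim-3- TIL were lower for 7 and higher for 2 (median -0.83, all genes -0.063), and Tim-3+ TIL lower for 12 and higher for 0 (median -2.68, all genes -0.065). Over all genes Tim-3+ TIL were lower than naive cells for 21.4% and higher for 20.1%, and Tim-3- TIL lower for 18.3% and higher for 16.1%. Between the TIL groups 5.77% of all genes were lower and 7.77% higher in Tim-3+ TIL. The 2 that rose first, as Lrig1 did, were Cxcr5 (2.82 ± 0.23), a chemokine receptor, and Myb (2.47 ± 0.34), a transcription factor. The list includes Bach2, also picked above for its likeness to Nsg2 and Dapl1. It also includes S1pr1 and Slamf6, named above for their falls between the TIL groups (-5.55 and -3.94). The direction of the list in these arrays was known beforehand.

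**Figure D4:**
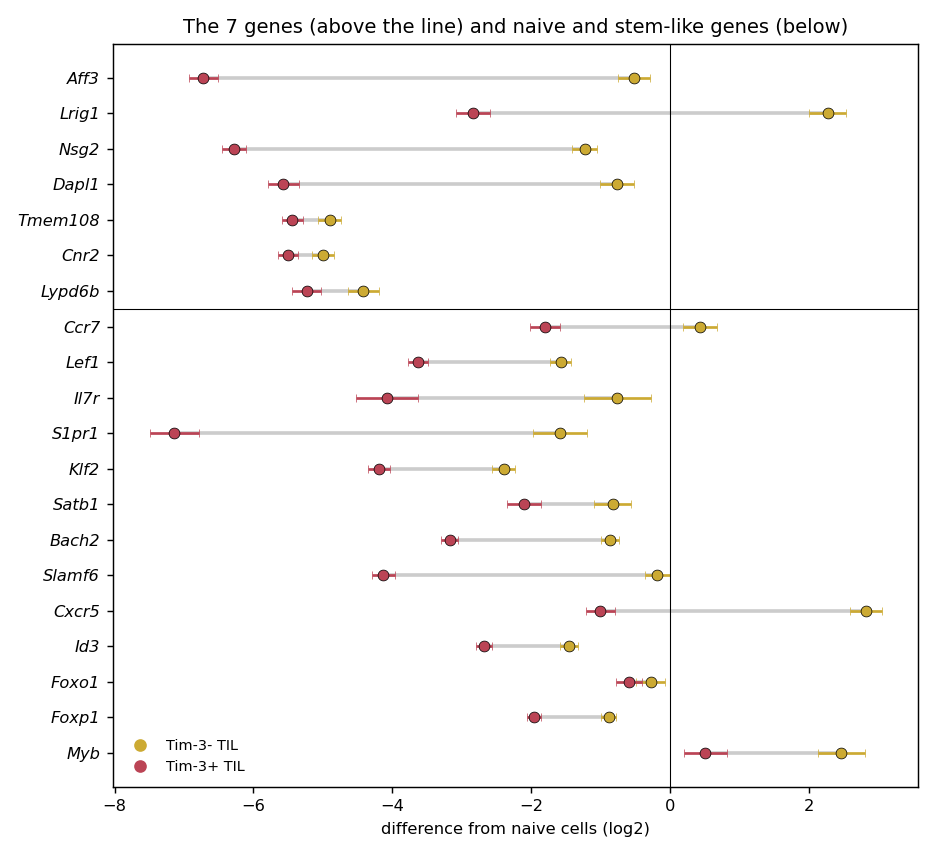
Log2 difference from naive cells of Tim-3- TIL and Tim-3+ TIL for the 7 genes (above the line) and 13 genes of naive and stem-like T cells (below), with SE bars from the limma fit. Lrig1, Cxcr5 and Myb have Tim-3- TIL right of 0, at 2.27, 2.82 and 2.47, and Tim-3+ TIL far to the left of that.

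Paralogs and partners of the 7 genes were read from lists, and many of them were dim in naive cells already. The counts below stand against the shares over all genes, 16.1% higher and 18.3% lower from naive cells to Tim-3- TIL and 7.77% higher and 5.77% lower from Tim-3- to Tim-3+ TIL, and nothing particular to a list is read from them. In the AFF family and elongation complex list, 10 of 11 genes were measured, of which 2 were lower and 0 were higher when Tim-3+ were set against Tim-3- TIL (median -0.17), Aff1 at -0.82 ± 0.21 (adjusted p = 0.0201) and Aff4 at -0.62 ± 0.19 (adjusted p = 0.0411). Aff2 was dim on all 12 arrays. Against naive cells, 3 were higher and 1 lower in Tim-3- TIL. Aff4 was among those higher, at 0.87 ± 0.18 (limma adjusted p = 0.0016). In Tim-3+ TIL against naive cells Aff4 did not pass (0.25 ± 0.16, limma adjusted p = 0.257). The elongation factor Ell2 went from a dim 4.19 ± 0.49 in naive cells to 9.80 ± 0.43 and 9.86 ± 0.62 in the TIL groups. It rose by 5.61 ± 0.32 from naive cells to Tim-3- TIL (limma adjusted p = 1.03e-08). Between the TIL groups, the step in which Aff3 fell, Ell2 did not pass (0.060 ± 0.34, adjusted p = 0.947). Lrig2 differed from naive cells by -1.22 in Tim-3- and by -1.65 in Tim-3+ TIL (limma adjusted p = 0.000165 and 2.89e-06), whereas Lrig3 was dim throughout. Of 6 growth factor receptors listed as known or likely targets of Lrig1 proteins, Ret, dim in naive cells at 5.11, rose by 2.63 ± 0.29 from naive to Tim-3- TIL (limma adjusted p = 7.05e-06) and fell by 1.81 to Tim-3+ TIL (adjusted p = 0.00109). Unlike Lrig1, it stayed above naive cells there (0.82 ± 0.27, adjusted p = 0.0230). Erbb3 was higher in both TIL groups than in naive cells, by 0.85 ± 0.15 and 0.93 ± 0.14.

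Nsg1, the paralog of Nsg2, was at 6.08 ± 0.15 in naive cells and 6.38 ± 0.19 in Tim-3- TIL, and it was higher in Tim-3+ TIL than in naive cells by 0.32 ± 0.10 (limma adjusted p = 0.0242). Dap rose where Dapl1 fell, by 0.46 ± 0.096 from naive to Tim-3- TIL and by 0.35 ± 0.10 from there to Tim-3+ TIL (adjusted p = 0.00181 and 0.0325). Of 4 genes listed around Tmem108 in endosomal trafficking, 1 changed, Sh3gl1, which fell by 0.69 from naive cells to Tim-3- TIL.

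Cnr1, which encodes the other cannabinoid receptor, was dim on every array. In the endocannabinoid list 12 of 13 genes were measured, 2 higher and 3 lower in Tim-3- TIL than in naive cells (median 0.0042), and between the TIL groups 0 rose and 2 fell toward Tim-3+. Gpr18, a lymphocyte receptor for lipid ligands, fell in both steps, from 10.99 ± 0.19 to 10.08 ± 0.13 and 8.29 ± 0.21 (-0.91 ± 0.13 and -1.80 ± 0.14, limma adjusted p = 0.000107 and 1.29e-06). Faah, which degrades endocannabinoids, fell between the TIL groups by 0.75 (adjusted p = 0.0113). Napepld, an enzyme of their synthesis, and Plcb2, a phospholipase downstream of G proteins, differed by -0.92 and -1.33 in Tim-3- TIL from naive cells (adjusted p = 0.000169 and 8.70e-06). Among 10 measured genes of the Ly6 family list of 13, 3 were lower and 0 higher in Tim-3- TIL than in naive cells: Lynx1 (-1.05), Ly6k (-1.02) and Plaur (-0.44). Between the TIL groups Plaur fell further (-1.28 ± 0.14) and Cd59a rose (0.49). Lypd6, the nearest relative of Lypd6b, was dim on all arrays, as were 9 of 12 measured nicotinic receptor subunits. Chrnb2 fell in both steps, by 0.59 and 0.68 (adjusted p = 0.0282 and 0.0383).

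The measured protein-coding genes next to each member on its chromosome, by RefSeq order in GRCm38.p6, were also read, a choice made after the member values were seen. Of 14 such genes, 0 rose and 2 fell from Tim-3- to Tim-3+ TIL (median -0.14), against 7.77% and 5.77% of all genes. These were Tanc1 beside Dapl1 (-1.21 ± 0.16, limma adjusted p = 0.000127) and Slc25a26 beside Lrig1 (-0.68 ± 0.15, adjusted p = 0.00721). Pkp4, on the other side of Dapl1, was at 12.09 and 11.93 in the TIL groups (adjusted p = 0.401). Neither neighbour of Aff3, Rev1 or Lonrf2, passed in any comparison. Against naive cells, Tim-3- TIL were higher for 3 and lower for 5 of the 14, against 16.1% and 18.3% of all genes. Kif5c, beside Lypd6b, was higher by 1.79 ± 0.15 (adjusted p = 4.31e-07), whereas Lypd6, on its other side, was dim. Beside Cnr2, Pnrc2 differed by -0.33 ± 0.092 (adjusted p = 0.0133) and Fuca1 did not pass (0.21 ± 0.088, adjusted p = 0.0842).

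Sort and cell type markers were read on the same arrays. Pdcd1 (PD-1) was at 5.14, 11.37 and 11.77, Havcr2 (Tim-3) at 4.63, 7.08 and 11.66 and Cd244a (2B4) at 4.19, 4.89 and 11.49 in naive, Tim-3- and Tim-3+ cells. The 7 measured CD8 T cell markers of 8 were all above the dim level on every array. Aff3 and Cnr2 are also known from B cells. Of 12 B cell markers 11 were measured, and their summed intensity ran from 752.4 to 975.6 in naive, 380.2 to 389 in Tim-3- and 335.9 to 358 in Tim-3+ arrays. The sum was higher in naive than in TIL arrays, and so were Cnr2, Tmem108 and Lypd6b, but not every marker fell. In Tim-3- TIL against naive cells 4 of the 11 were lower, 1 was higher and 6 did not pass, against 18.3% lower and 16.1% higher over all genes. The 1 that was higher was Cd22 (0.69 ± 0.17, limma adjusted p = 0.00488), dim on all arrays. Cd79b was at 8.89, 6.37 and 5.59, and 7 of the 11, among them Ms4a1, Ebf1 and Blnk, were dim on all 12 arrays. The part of B cell RNA in the naive levels was not tested. Melanoma marker sums ran from 419.2 to 555.1 in naive, 390.6 to 645.9 in Tim-3- and 300.7 to 1167 in Tim-3+ arrays. Of the 7 melanoma markers, 2 were higher (Dct and Tyrp1) and 1 lower (Pmel, -0.88 ± 0.23) in Tim-3- TIL than in naive cells by limma. In Tim-3+ TIL 4 were higher, Dct and Tyrp1 among them, and 1 was lower, again Pmel (-1.24 ± 0.21). The shares of all genes higher and lower were 16.1% and 18.3% in Tim-3- TIL and 20.1% and 21.4% in Tim-3+ TIL. Sums of fibroblast and endothelial markers went from 928.5 to 1194 in naive to 465.6 to 481.9 and 258.5 to 332.5 in the TIL groups; Pecam1, which T cells also express, was at 9.77, 8.17 and 6.71, and 4 of the 6 genes were dim throughout. Of 9 monocyte and macrophage markers 6 were dim on all arrays, with sums of 323.1 to 406, 489 to 576.6 and 404.8 to 510.6. Sums for CD4 and regulatory T cell markers were 349.9 to 395.8, 578.5 to 624.2 and 479.9 to 510.3, and for dendritic cell markers 335.9 to 433.9, 342.1 to 469.5 and 330.6 to 378.8. Both measured NK cell markers of 4 were dim on all arrays, as was 1 of the 2 measured erythroid markers. The part of any of these in the member levels was not tested.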

How the data were processed

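Arrays of 12 sorted CD8 T cell samples were analysed from 1 table of probe set intensities. The authors deposited linear intensity values, per the labels' protocols from RNA of sorted cells. RMA and the affy package are named per the submitters' processing notes. Versions, the step back to a linear scale and joint normalization are not given in the sources used. Array medians lay between 58.8 and 63.0, and precision is limited by how many arrays each group has.

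The log2 of each intensity was taken. Of 45101 probe sets, 64 were controls, 34945 named 1 gene, 932 several and 9160 none in the array's annotation, with symbols updated through RefSeq. A gene took its probe set with the highest mean, which gave 18193 genes with no filter. All comparisons came from one model in limma 3.58.1 under R 4.3.3, with a mean for each of the 3 groups, two-sided, with Benjamini-Hochberg adjustment over all genes and a threshold of 0.05. The ± after a difference is its SE. The fit was tested on simulated data. Figures used Python 3.11.15 with matplotlib 3.10.9.

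The members, lists and tests were chosen with earlier results of these data known. Named genes were the members, those nearest the limit of 4, the 3 most correlated genes per member and the sort markers. Listed related genes with adjusted p below 0.05 were named in part. The lists drew on general knowledge, and listed genes that did not pass are mostly left out of the text. Some that passed in a comparison, such as Met, Mllt1 and Chrnb1, are left out as well. Each result was recomputed under 25 alternatives: probe set choice, normalization, a filter on dim genes, an added offset of 16, moderation, array weights, the compared groups alone, replicate number or array set as a block, each set alone, and each array left out.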

Additional observations from a re-analysis of the deposited data

How the results depend on the processing

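No alternative turned the sign of any of the 21 differences of the 7 genes. Most of these are, or hold, the large step that picked the gene. For those a kept sign was close to given and tests nothing, and the counts that follow include them. Over 525 recomputed values, 467 kept their call or stayed within 1 SD, 15 lost a call, 19 gained one and 24 moved by more than 1 SD. Those that moved came from averaging all probe sets (Tmem108 from naive to Tim-3- TIL at -2.34, Aff3 between TIL groups at -4.63), the most variable probe set of Lrig1 (-5.75), the offset of 16, which shrinks falls into dim levels (Cnr2 at -4.11), and single array sets. Genes passing between the TIL groups numbered 2463, from 1666 to 2447 without 1 array and 1590 within set A, which holds fewer arrays. The counts against naive cells stayed within 1.5 times, from 5136 to 6235 for Tim-3- and 6858 to 7852 for Tim-3+ TIL without 1 array.

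Whether replicate numbers pair the arrays is not settled. Deviations from the group means correlated above 0.1 in 8 of 10 same-numbered pairs (range -0.15 to 0.41), in all 4 pairs of naive with Tim-3+ arrays but not in replicate 2 of Tim-3- with naive (-0.15) or with Tim-3+ arrays (-0.13), and 4 of 12 arrays correlated best with their own number. The 8 pairs each joined arrays of 1 array set, and both pairs below 0 joined set A with set B. Pairing and array set thus cannot be told apart by these values. With the replicate block, 2750 genes passed between the TIL groups, 6415 between naive cells and Tim-3- TIL, and 7681 between naive cells and Tim-3+ TIL, and of the 7 calls tested the block changed 3. Dapl1 between naive cells and Tim-3- TIL went to -0.70 (limma adjusted p = 0.0513) and Lypd6b between the TIL groups to -0.81 (adjusted p = 0.0734), both short of the threshold, while Tmem108 between the TIL groups passed at -0.53 (adjusted p = 0.0377). Levels below 5.71 limit what can be said of Tmem108, Cnr2 and Lypd6b in TIL and of Aff3, Nsg2 and Lrig1 in Tim-3+ TIL.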
